A study of Mus musculus with 48 samples.

Results

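The change in macrophage gene expression between 7 and 14 days after bleomycin was compared between wild-type (WT) mice and mice lacking Siglec-F (KO). The quantity described is a difference of changes: the log2 change from day 7 to day 14 in KO mice minus the same change in WT mice. It rests on 12 of the 24 mice of the series, 3 in each of WT day 7, WT day 14, KO day 7 and KO day 14, and on the 12318 of 24411 listed genes that had enough counts. A positive value means that a gene moved further up, or less far down, in KO mice. No naive mouse enters it.

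Siglec-F is a mouse receptor of the sialic acid-binding lectin family, carried by alveolar macrophages and eosinophils, and its cytoplasmic tail holds inhibitory signalling motifs. Bleomycin injures the alveolar epithelium. Monocytes then enter the airspaces and become macrophages, which over the following weeks lose monocyte genes and gain genes of resident alveolar macrophages, while part of them takes on a program linked to fibrosis. Resident alveolar macrophages clear surfactant lipid, so their cholesterol synthesis, uptake and export genes are closely regulated. When cell sterol is low, the factor SREBP2 raises synthesis and uptake genes, and when oxysterols build up, the LXR receptors raise export genes.

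All mice were male and all 12 had received bleomycin into the trachea at 2.5 units/kg. The cells were macrophages from bronchoalveolar lavage, taken at 7 or 14 days. The sources used here do not give the strain, the age, the knockout allele or the way macrophages were separated from other lavage cells. Each mouse gave 1 library, so an SD describes mice. In such bulk samples, fewer cells of a type and less RNA per cell cannot be told apart.

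Library totals ran from 24877049 to 42242381 counts. Siglecf is the targeted gene (ENSMUSG00000039013.16, mm10 chromosome 7, 43351341 to 43359531). It had 66.6 to 155 CPM (counts scaled to a library of standard size) in the 6 WT mice and 0 to 0.237 CPM in the 6 KO mice. Every library thus matched the genotype of its label, and the day was not checked by this gene. General macrophage markers were high in all 12 mice: Cd68 ranged from 1378 to 1877 CPM, Lyz2 from 14345 to 40031 CPM and Adgre1, which encodes F4/80, from 373 to 512 CPM. In WT day 7 mouse 1 the ribosomal RNA gene Rn45s took 8.19% of counts, against 1.74 to 4.75% in the other 11 mice. Surfactant gene RNA was present in several libraries, with Sftpc at 85.5 CPM in WT day 7 mouse 3 and 16.4 CPM in KO day 14 mouse 1 and at most 8.78 CPM elsewhere.

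Between day 7 and day 14 the macrophages of both genotypes changed in the same broad direction, and no single gene passed the test of a genotype difference in that change. The edgeR quasi-likelihood test with Benjamini-Hochberg adjustment called 0 of 12318 genes (0%) for the difference, with a smallest adjusted p of 0.753. At an unadjusted p under 0.05 there were 775 genes (6.29% of those tested), 334 with a positive difference (2.71%) and 441 with a negative one (3.58%). DESeq2 called 11 genes (0.0893%), limma-voom 0 and limma-voom with quality weights 0, with 894, 874 and 2076 genes at an unadjusted p under 0.05. Over all genes the median difference was 0.02 on the log2 scale, and it was positive in 6505 genes (52.8%) and negative in 5813 (47.2%).

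The change within each genotype was large. In WT mice 510 genes passed the test between day 7 and day 14 (4.14%), 196 higher (1.59%) and 314 lower (2.55%). In KO mice 1625 passed (13.2%), 738 higher (5.99%) and 887 lower (7.2%). The genotypes share no mouse, and 388 genes passed in both, 76.1% of the WT calls and 23.9% of the KO calls. All 388 moved the same way, 131 up and 257 down. Across the tested genes, which are not independent replicates, WT and KO changes correlated with a Pearson r of 0.49 and a Spearman rho of 0.55. A larger count of called genes in KO mice is not itself a test of a difference between genotypes. Both counts changed when single mice were left out, which also leaves fewer mice in a group. The WT count was 394, 487 and 158 without WT day 7 mice 1, 2 and 3. It was 72, 197 and 185 without WT day 14 mice 1, 2 and 3. The KO count was 712, 979 and 1555 without KO day 7 mice 1, 2 and 3. It was 1994, 834 and 800 without KO day 14 mice 1, 2 and 3.

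**Figure D1:**
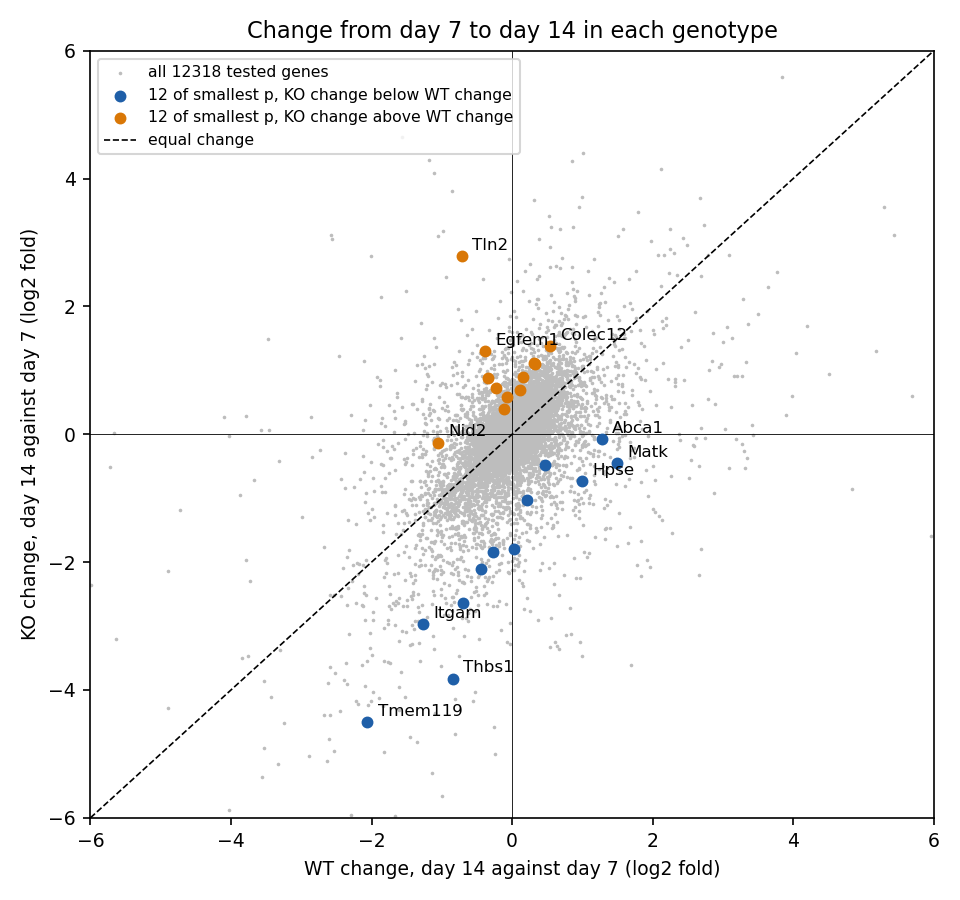
Change from day 7 to day 14 in WT mice (x axis) and KO mice (y axis), both as log2 fold, with 1 grey point per tested gene and the dashed line where the changes are equal. The 24 genes of smallest unadjusted p are coloured; Thbs1 and Tmem119 lie far below the line and Tln2 far above it, and 42 genes fall outside the axis limits of 6.

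The genes with the smallest p were named as 12 of each sign, with a standard symbol and at least 5 CPM in the highest group. They were chosen on the difference itself and all had an edgeR adjusted p of 0.753, so their values are a description. In the 12 with a negative difference, 8 fell in KO mice by their own test and 4 changed in WT mice. All 12 had KO day 14 mice below WT day 14 mice without overlap, which the choice of genes favours (958 of all tested genes, 7.78%, did so).

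Thbs1 encodes thrombospondin 1, a matrix protein able to activate latent TGF-beta (ENSMUSG00000040152.8; mm10 chromosome 2, 118111876 to 118127133), and it led the list. WT mice had 113, 93.1 and 133 CPM at day 7 and 27.9, 64.7 and 96.4 CPM at day 14. KO mice had 163, 266 and 130.1 CPM at day 7 and 20.2, 11.6 and 8.08 CPM at day 14. The 3 KO day 14 mice were the lowest of the 12, while the WT mice of both days overlapped. The fall was 14.1-fold in KO mice (edgeR adjusted p = 0.00065) and 1.79-fold in WT mice (adjusted p = 0.28). The difference of changes was -2.98 (SE 0.59, 95% interval -4.25 to -1.71, unadjusted p = 0.00023), and it ran from -3.43 to -2.53 when single mice were left out.

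Further genes of this sign belong to adhesion and monocyte biology. Itgam, the integrin chain CD11b of monocytes and neutrophils (ENSMUSG00000030786.18; mm10 chromosome 7, 128062640 to 128118491), had 314, 322 and 423 CPM in WT mice at day 7 and 104, 136 and 198 at day 14. In KO mice it went from 493.1, 523.9 and 232 CPM to 61.2, 59.1 and 39.8. It fell in both genotypes, 2.42-fold in WT mice and 7.80-fold in KO mice, and the difference was -1.69 (SE 0.42). F13a1, the coagulation factor XIII A chain of monocyte-lineage cells, had 52.2 to 68.4 CPM in WT mice at day 14 and 14.4 to 32.9 in KO mice, with a difference of -1.67 (SE 0.39). Tmem119, known as a microglial membrane protein, fell 4.17-fold in WT mice and 22.7-fold in KO mice, to 0.375 to 1.11 CPM.

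Pde2a, a phosphodiesterase that breaks down cyclic nucleotides, fell 6.21-fold in KO mice, where the 3 day 14 mice had 1.31 to 3.39 CPM against 8.62 to 12.9 in WT mice. Padi2, a peptidylarginine deiminase, and Adam19, a membrane metalloprotease, fell 3.60-fold and 3.48-fold in KO mice, and Abca9, an ABC family transporter, fell 2.05-fold. None of these 4 passed the test in WT mice.

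In 3 genes of this sign the WT day 14 mice were all above the WT day 7 mice. Abca1 exports cholesterol to apolipoprotein A-I and is a textbook LXR target (ENSMUSG00000015243.4; mm10 chromosome 4, 53030787 to 53159895). In WT mice it went from 92.4, 137 and 109.5 CPM to 224, 265 and 334, a 2.43-fold rise (edgeR adjusted p = 0.012). KO mice had 158, 218 and 132 CPM at day 7 and 202, 165 and 116 at day 14, so their days overlapped. The difference was -1.35 (SE 0.33, unadjusted p = 0.0012). Matk, a kinase that restrains Src family kinases, rose 2.82-fold in WT mice (adjusted p = 0.017), from 3.23, 5.10 and 4.49 CPM to 13.0, 9.76 and 13.4. Its KO levels overlapped between days, at 4.06 to 8.60 and 3.52 to 6.48 CPM. Hpse, the heparan sulfate-cleaving enzyme heparanase, had 33.7 to 44.2 CPM in WT mice at day 7 and 64.0 to 99.1 at day 14, and 25.4 to 43.4 and 12.4 to 32.1 CPM in KO mice. Neither change of Hpse passed its test (adjusted p = 0.077 in WT mice and 0.13 in KO mice). Akr1b3, an aldose reductase, had a difference of -0.95 (SE 0.23) and passed in neither genotype.

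Of the 12 genes with a positive difference, 11 rose in KO mice by their own test and 1 changed in WT mice. Their KO day 14 mice were all above the WT day 14 mice in 11 of 12 (983 of all tested genes, 7.98%, did so). The largest value was that of Tln2, a talin that links integrins to actin. Tln2 had 0.684 to 2.27 CPM in WT mice at day 7, 0.764 to 1.22 in WT mice at day 14 and 0.443 to 1.71 in KO mice at day 7, then 4.01, 5.32 and 10.4 CPM in KO mice at day 14. Its difference was 3.50 (SE 0.79, unadjusted p = 0.00068). Mvd belongs to cholesterol synthesis and is given with that list. Egfem1, an EGF-domain gene, and Bmpr1a, a receptor for bone morphogenetic proteins, rose 2.47-fold and 1.84-fold in KO mice.

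The other rises came from genes of varied roles. Colec12, a scavenger receptor of the collectin family, rose 2.60-fold in KO mice, to 62.8, 51.7 and 59.6 CPM where WT day 14 mice had 30.4, 31.7 and 35.7. Mcoln3, an endolysosomal cation channel of alveolar macrophages, rose 2.15-fold in KO mice, although its KO and WT mice overlapped at day 14. Rras, a small GTPase, Tgm1, a transglutaminase, Creb3, a membrane-bound transcription factor, and the histone gene H2afj rose by 1.62-fold, 1.66-fold, 1.32-fold and 1.49-fold. Nid2, a basement membrane protein, was the one case in which the WT mice changed: it fell 2.08-fold (edgeR adjusted p = 0.011), to 4.45 to 4.86 CPM, and KO mice had 9.29 to 10.2 CPM at day 14.

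**Figure D2:**
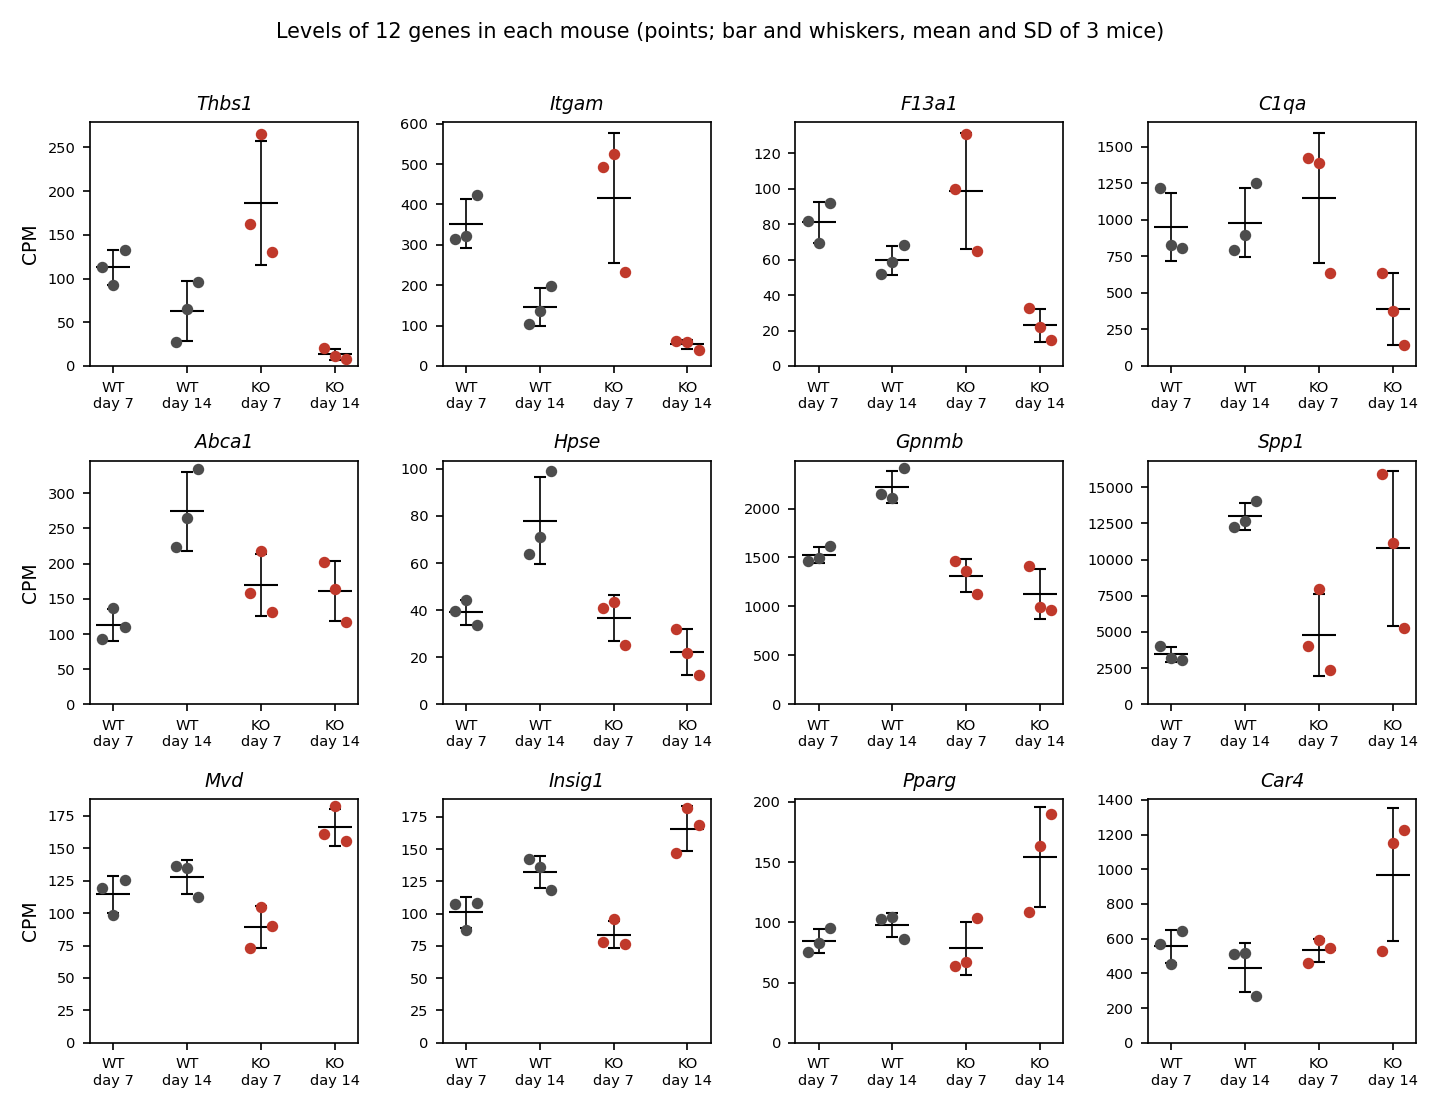
Level in CPM (y axis, from 0) of 12 genes in each mouse of the 4 groups (x axis); points are mice, and the bar with whiskers is the mean and SD of 3 mice. Thbs1, Itgam and F13a1 are lowest in KO day 14 mice, and C1qa has its lowest mean there. Abca1 and Hpse are highest in WT day 14 mice, and Mvd, Insig1 and Pparg are highest in KO day 14 mice.

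Cholesterol synthesis genes had mostly positive differences. The list holds enzymes of the mevalonate and sterol pathway with the SREBP2 regulators, and 27 members were tested. In KO mice 20 rose and 1 fell between the days, and in WT mice 0 rose and 1 fell. The member that fell in both was Lbr, the lamin B receptor, singled out after its values were seen. The median change was 0.74 (log2) in KO mice and 0.26 in WT mice, against -0.00091 and -0.01 over all tested genes. The difference was positive in 25 of 27 members, with a median of 0.49, and 16 had an unadjusted p under 0.05, all positive, although none passed after adjustment.

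Mvd, the decarboxylase that ends the mevalonate steps, had 72.8, 105 and 90.1 CPM in KO mice at day 7 and 161, 183 and 155 at day 14, and its WT days overlapped, at 98.6 to 126 and 113 to 136 CPM. It rose 1.86-fold in KO mice (edgeR adjusted p = 0.0022), and the WT change had an adjusted p of 0.59. The difference was 0.74 (SE 0.20, 95% interval 0.31 to 1.17, unadjusted p = 0.0025). Insig1, the sterol sensor that holds SREBP in the endoplasmic reticulum, rose 1.99-fold in KO mice and had a difference of 0.60 (SE 0.18). Hmgcs1, which makes the precursor of mevalonate, rose 1.91-fold in KO mice, with a difference of 0.56 (SE 0.19).

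Promoters are shown because 20 of the 27 genes rose in KO mice. RefSeq start sites of the GRCm38.p6 build were matched for 20 of the 27 tested members, with 24 windows from 250 bases before to 50 bases after a start. Capitals mark the sterol regulatory element letters TCACNCCAC and the CCAAT box, the site of factor NF-Y, on either strand. The first window, of Hmgcs1, lies at chr13:119690101-119690400 on the plus strand and the second, of Mvd, at chr8:122443373-122443672 on the minus strand.
Hmgcs1: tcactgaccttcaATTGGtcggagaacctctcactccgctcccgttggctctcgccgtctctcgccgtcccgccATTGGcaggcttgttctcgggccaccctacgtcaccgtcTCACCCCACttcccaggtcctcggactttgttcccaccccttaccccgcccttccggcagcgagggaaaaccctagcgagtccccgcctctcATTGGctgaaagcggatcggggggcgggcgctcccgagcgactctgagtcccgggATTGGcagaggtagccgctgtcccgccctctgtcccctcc
Mvd: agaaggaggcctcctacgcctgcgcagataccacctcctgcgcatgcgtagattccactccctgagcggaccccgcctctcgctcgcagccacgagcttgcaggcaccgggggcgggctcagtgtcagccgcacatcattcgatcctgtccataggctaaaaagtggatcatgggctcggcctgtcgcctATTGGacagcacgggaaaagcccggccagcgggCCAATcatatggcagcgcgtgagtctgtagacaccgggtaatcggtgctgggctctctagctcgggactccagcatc
The sterol element letters were found in 1 of the 24 windows, that of Hmgcs1, and in 1.24% of the 32851 windows of the whole table. The CCAAT box was found in 18 of 24 windows (75%) and in 37.4% of the whole table. These matches describe letters, not bound sites, and the expression data do not test them.

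The genotype order of the group means of these genes differed between days. At day 7 the KO mean was below the WT mean in 24 of 27 members, with 3 separated lower without overlap and 0 higher (background 4.12% and 3.93%). At day 14 it was above in 24 of 27, with 8 separated (7.98%). At day 21, in 6 further mice outside the comparison, it was below in 26 of 27, with 20 separated (8.35%). Hmgcs1 then had 157, 165 and 266 CPM in KO mice and 296, 308 and 362 in WT mice, and Insig1 112, 104 and 138 CPM against 165, 175 and 203. The mean log2(CPM + 1) of the list at day 14 was 6.55, 6.84 and 6.62 in KO mice and 6.52, 6.52 and 6.27 in WT mice, so KO mouse 1 lay just above the highest WT mice. The order of days was not tested.

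The LXR and export genes did not move as 1 group. Of 19 tested, 6 rose and 1 fell in WT mice (1.59% and 2.55% of all tested genes). In KO mice 5 rose and 1 fell (5.99% and 7.2%). The median difference was -0.15, or -0.29 without KO day 14 mouse 1. At an unadjusted p under 0.05 there were 2 positive and 4 negative differences (2.71% and 3.58% of all tested genes). Beside Abca1, Pltp, the phospholipid transfer protein, rose 1.84-fold in WT mice (edgeR adjusted p = 0.0058), from 181, 185 and 168 CPM to 372, 302 and 311, and had 286, 209 and 209.7 CPM in KO mice at day 14. Nr1h3, which encodes LXR alpha itself, rose 1.52-fold in KO mice (adjusted p = 0.0042), to 76.5 to 86.1 CPM, against 55.0 to 69.1 in WT mice at day 14. Apoe, a lipid carrier, varied from 305 to 4469 CPM between mice and passed in neither genotype.

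Genes of recruited monocyte-derived macrophages and of interstitial macrophages had mostly negative differences. Among 15 tested interstitial and complement C1q genes, 10 fell and 1 rose in KO mice, and 3 fell and 0 rose in WT mice. Their median change was -2.10 in KO mice and -0.44 in WT mice. The difference was negative in 14 of 15, with a median of -1.67, and 10 had an unadjusted p under 0.05, all negative. Among 28 tested recruited macrophage genes, which share F13a1 and Cx3cr1, among others, with the first list, 17 fell in KO mice and 7 in WT mice, with none higher in either. Their difference was negative in 24 of 28, with a median of -0.85 (-1.40 without KO day 14 mouse 1), and 11 had an unadjusted p under 0.05, all negative.

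C1qa encodes a chain of C1q, the recognition protein of the classical complement pathway (ENSMUSG00000036887.5; mm10 chromosome 4, 136895917 to 136898803). It had 1218, 829.8 and 805 CPM in WT mice at day 7 and 796, 897 and 1249 at day 14, which overlap. KO mice had 1419, 1391 and 633 CPM at day 7 and 637, 378 and 144 at day 14. The KO day 14 mice were all below the WT mice, but KO day 14 mouse 1 lay just above KO day 7 mouse 3. The fall in KO mice was 2.97-fold (edgeR adjusted p = 0.032) and the difference -1.62 (SE 0.61, unadjusted p = 0.02).

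Stab1, a scavenger receptor of tissue macrophages, fell in both genotypes, 13.2-fold in KO mice and 2.99-fold in WT mice, to 32.6, 19.4 and 8.03 CPM and to 45.9, 62.6 and 75.9 CPM. Ly6c2, a marker of classical monocytes whose reads may be shared with its close paralogs, fell 81.9-fold in KO mice and 13.9-fold in WT mice. Its day 14 levels were 2.23, 0.546 and 0.239 CPM in KO mice and 2.89, 4.48 and 9.43 in WT mice. Ccr2, the receptor that brings monocytes from the bone marrow, fell 6.45-fold and 2.82-fold, to 25.9 to 67.4 CPM in KO mice and 71.6 to 138 in WT mice. Cx3cr1, a chemokine receptor of monocytes and interstitial macrophages, fell 4.68-fold in KO mice and did not pass in WT mice (adjusted p = 0.48). Ifitm3, a membrane protein that blocks virus entry, fell in both, 18.1-fold in KO mice and 4.01-fold in WT mice.

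Among chemokine and chemokine receptor genes, 10 of 24 fell in KO mice and 5 in WT mice, 0 rose in either, and the median difference was -0.66, or -0.40 without KO day 7 mouse 2. Ccl9, a monocyte-attracting chemokine, fell 2.54-fold in KO mice (edgeR adjusted p = 0.022) and had 273 to 416 CPM in WT mice at day 14 against 109 to 216 in KO mice.

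Of 32 tested resident alveolar macrophage genes, 15 rose, 0 fell and 17 did not pass in KO mice, and 3 rose and 1 fell in WT mice. The median change was 0.80 in KO mice and 0.28 in WT mice. The difference was positive in 28 of 32, with a median of 0.36. At an unadjusted p under 0.05 there were 4 genes, all positive (2.71% of all tested genes). The median was 0.56 without WT day 14 mouse 1 and 0.54 without KO day 7 mouse 3. Siglecf is itself a member, and it is near 0 in KO mice, which lowers their mean level of the list. It was therefore left out of the levels that follow, which were scaled over all mice of the series. The mean log2(CPM + 1) of the other 31 members was 7.78, 7.72 and 8.01 in KO mice at day 7. At day 14 it was 8.07, 8.52 and 8.8 in KO mice, against 8.5, 8.1 and 7.79 in WT mice. KO day 14 mouse 1 thus lay close to the KO day 7 mice and below 2 of the WT day 14 mice. KO day 14 mouse 2 lay just above the highest WT day 14 mouse, and KO day 14 mouse 3 lay further above.

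Pparg, the nuclear receptor that sets alveolar macrophage identity, had 64.1, 67.3 and 104 CPM in KO mice at day 7 and 109, 164 and 189.8 at day 14, a 1.97-fold rise (edgeR adjusted p = 0.01). WT mice overlapped between the days, at 75.3 to 95.6 and 85.9 to 104 CPM. Car4, a membrane carbonic anhydrase, had 529, 1152 and 1224 CPM in KO mice at day 14 and 511, 516 and 270.2 in WT mice. Its change missed the threshold in KO mice (adjusted p = 0.073), and KO mouse 1 was close to the upper WT mice. Chil3, a chitinase-like protein abundant in these cells, rose 2.21-fold in KO mice (adjusted p = 0.015), and its genotypes overlapped at day 14, with 5735 to 10159 CPM in WT mice and 8819.6 to 17241 in KO mice.

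**Figure D3:**
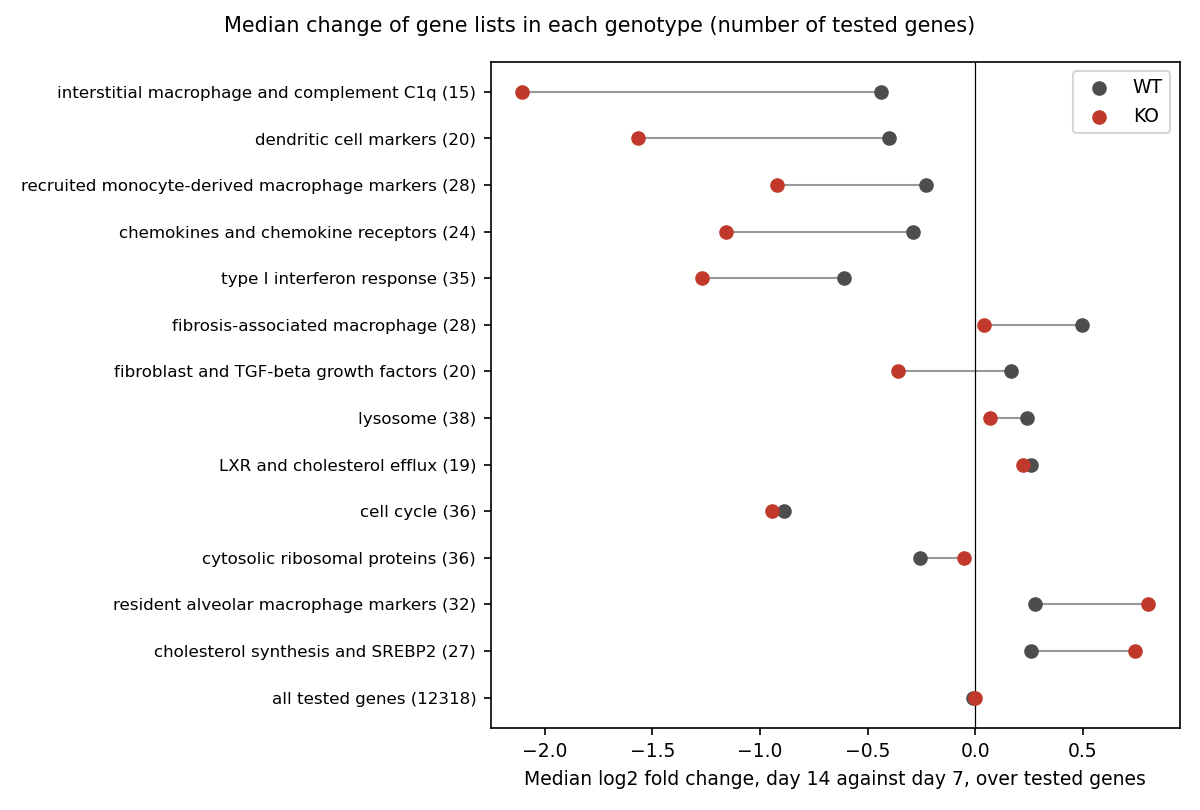
Median log2 change from day 7 to day 14 (x axis) of the tested genes of 13 lists and of all tested genes (rows, with the number of genes), for WT and KO mice. KO medians lie to the left of WT medians for the interstitial, dendritic, recruited, chemokine and interferon lists and to the right for the resident and cholesterol synthesis lists, while the cell cycle medians nearly coincide.

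Of 35 tested type I interferon response genes, 20 fell in KO mice and 1 in WT mice, with 0 higher in either. The median change was -1.27 in KO mice and -0.61 in WT mice, so the list moved down in both. The difference was negative in 32 of 35, with a median of -0.65. However, 4 had an unadjusted p under 0.05, all negative (3.58% of all tested genes), and 0 passed after adjustment. Leaving out 1 day 14 mouse moved the median to -1.24 (KO mouse 1), -0.31 (KO mouse 3) or -0.43 (WT mouse 3). Mx1, an antiviral GTPase, had 3.03, 3.62 and 5.62 CPM in WT mice at day 14 and 2.85, 0.853 and 0.835 in KO mice, and fell 6.14-fold in KO mice. Irf7, a transcription factor that amplifies interferon, fell 4.29-fold in KO mice, to 38.6, 17.3 and 8.89 CPM, where WT mice had 40.7, 42.8 and 70.0. Isg15, a ubiquitin-like modifier, fell 2.63-fold in KO mice, and Usp18, which removes that modifier, fell 4.58-fold. In each of these 4 genes KO mouse 1 lay close to the WT mice and mice 2 and 3 lay well below.

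Genes of fibrosis-associated macrophages had mostly negative differences. Of 28 tested, 3 rose and 0 fell in WT mice (1.59% and 2.55% of all tested genes). In KO mice 4 rose and 3 fell (5.99% and 7.2%). The median change was 0.49 in WT mice and 0.04 in KO mice. The difference was negative in 23 of 28, with a median of -0.48 (-0.78 without KO day 14 mouse 1 and -0.29 without KO day 7 mouse 2), and 3 had an unadjusted p under 0.05, all negative. Gpnmb, a glycoprotein of the macrophage surface and lysosome, had 1462, 1499.5 and 1621 CPM in WT mice at day 7 and 2146, 2110.2 and 2411 at day 14. KO mice had 1459.7, 1359.7 and 1125 CPM and then 1417, 997 and 961, so KO mice were below WT mice at both days and further below at day 14. Its difference was -0.77 (SE 0.21, unadjusted p = 0.0029), and neither change passed (edgeR adjusted p = 0.058 in WT mice and 0.36 in KO mice).

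Spp1, which encodes the secreted protein osteopontin, rose 3.76-fold in WT mice (edgeR adjusted p = 0.023), from 4043, 3231 and 3084 CPM to 12247, 12654 and 14045. KO mice had 4024, 7964 and 2391 CPM at day 7 and 15920.2, 11164 and 5242 at day 14, a wide spread in which the days overlapped. The difference was -0.74 with a 95% interval of -1.95 to 0.47. Plau, the urokinase plasminogen activator, fell 2.67-fold in KO mice and was lower in all 3 of them at day 14 than in any WT mouse. Trem2, a lipid receptor, and Mmp12, the macrophage elastase, had differences of -0.60 (SE 0.33) and -0.91 (SE 0.48) and passed in neither genotype.

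Among 20 tested growth factor and TGF-beta genes, 2 rose and 0 fell in WT mice, and 2 rose and 3 fell in KO mice, where 5.99% and 7.2% of all tested genes did. The median difference was -0.34, and it was -0.19 without WT day 14 mouse 3 or KO day 7 mouse 2 and -0.21 without WT day 7 mouse 2 or KO day 14 mouse 2. Besides Thbs1, Gas6, a ligand of the TAM receptors that bind apoptotic cells, fell 2.76-fold in KO mice (edgeR adjusted p = 0.042) and had 15.1 to 16.4 CPM in WT mice at day 14 against 3.40 to 8.63 in KO mice. Pdgfa, a growth factor for fibroblasts, fell 2.45-fold in KO mice, to 2.24 to 3.24 CPM, with 4.04 to 4.93 CPM in WT mice.

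For several other programs little or no difference was detected. Of 36 cell cycle genes, 29 fell in WT mice and 30 in KO mice, with medians of -0.89 and -0.94 and 0 differences at an unadjusted p under 0.05. Of 36 oxidative phosphorylation genes, 0 passed in WT mice and 2 fell in KO mice, and the median difference of 0.0032 changed sign with the scaling (-0.0095 with RLE) and with the mice used, from -0.14 without WT day 7 mouse 1 to 0.09 without WT day 7 mouse 2. Of 36 cytosolic ribosomal protein genes, 35 had a positive difference, with a median of 0.19, but 0 had an unadjusted p under 0.05 and 1 passed within KO mice. That median was 0.0029 without WT day 7 mouse 1, the library with the high Rn45s share. Leaving out other single mice gave 0.31 (WT day 7 mouse 2), 0.12 (KO day 7 mouse 3), 0.32 (KO day 14 mouse 1) and 0.08 (KO day 14 mouse 3). Among 38 lysosome genes 33 had a negative difference (47.2% of all tested genes), with a median of -0.19 (-0.31 without KO day 14 mouse 1). Of these genes 3 had an unadjusted p under 0.05, all negative (3.58% of all tested genes).

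Markers of other cell types moved too. Dendritic cell markers fell in KO mice in 9 of 20 tested genes and in WT mice in 2, with a median difference of -0.88 (-1.35 without KO day 14 mouse 1). Their summed level was 354 to 360.4 CPM in WT mice at day 7, 256 to 323 in WT mice at day 14, 292 to 391 in KO mice at day 7 and 162 to 275 in KO mice at day 14, and none of the 20 was at 0 in all mice. Mgl2, a lectin that macrophages also express, fell 32.9-fold in KO mice and 7.44-fold in WT mice, and Bst2 is in the interferon list as well. T and NK markers, 18 tested, had a median difference of -0.60, which was -0.05 without WT day 14 mouse 3, -0.36 without KO day 14 mouse 2 and -0.98 without KO day 14 mouse 1. Cd3e, part of the T cell receptor complex, was at 0.99 to 6.22 CPM in all 12 mice, and 0 of the 21 T and NK genes in the table were at 0 throughout. The summed level of that list was 216 to 228 CPM in WT mice at day 7, 230.2 to 320.2 in WT mice at day 14, 158.5 to 176 in KO mice at day 7 and 167 to 306 in KO mice at day 14, and Cd2 alone had 80.8 to 277.5 CPM. The 20 alveolar epithelial markers had a positive median of 0.98, which became -0.82 when WT day 7 mouse 3 and KO day 14 mouse 1, the libraries with the most surfactant gene RNA, were left out together. Without either alone it was 0.30 and 0.36, and without KO day 7 mouse 2 it was 1.48. Their summed level was 508 to 703 CPM in WT mice at day 7 and 448 to 725 at day 14. The KO sums were 549.9 to 559 CPM at day 7 and 576 to 1115 at day 14. Krt19 alone had 123.7 to 661.8 CPM, with its highest level in KO day 14 mouse 3. KO day 14 mouse 1, with the most surfactant gene RNA of the KO mice, had the lowest KO day 14 sum. Among KO day 14 mice the sum thus did not follow surfactant gene RNA. The neutrophil genes Camp and Elane, the eosinophil and mast cell genes Prg3, Cpa3, Mcpt4 and Mcpt8, and the stromal genes Lum, Tcf21, Cldn5 and Tek were at 0 in all 12 mice. Other members of the neutrophil and stromal lists were present, with Mmp8 at 82.5 to 298 CPM, S100a8 at 13.5 to 55.2 and Vwf at 59.2 to 128. The summed neutrophil level was 155 to 190 CPM in WT mice at day 7 and 223 to 302 at day 14. In KO mice it was 137 to 157 CPM at day 7 and 199 to 374 at day 14. The part of these cell types in the results above was not tested.

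KO mice of a group spread widely on several lists. On the mean log2(CPM + 1) of the interferon list, KO day 14 mice 1, 2 and 3 were at 4.51, 3.63 and 3.25 and WT day 14 mice at 4.28, 4.46 and 4.83, so KO mouse 1 lay within the WT range. On the interstitial list the KO mice were at 5.01, 4.45 and 3.72 and the WT mice at 5.27, 5.35 and 5.67. KO day 7 mouse 3, at 5.56 on that list, was lower than the other KO day 7 mice, at 6.45 and 6.79. Without KO day 14 mouse 1 the difference called 13 of 12559 tested genes, all negative, among them Gpnmb and Mx1. None of the 24 genes of smallest p was among these 13. When mouse 1 was left out of both day 14 groups, the difference called 86 of 12460 tested genes, 17 positive and 69 negative. These included 10 of 35 tested interferon genes, 3 of 28 recruited and 2 of 16 interstitial macrophage genes, all negative. They also included 4 of 32 resident genes, all positive, and 6 of the 24 genes of smallest p (Thbs1, Pde2a, Padi2, F13a1, Hpse and Abca1). With 2 mice in a day 14 group these counts rest on very few animals, and leaving out any other single mouse called 0.

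The 11 genes that DESeq2 called were Thbs1, Itgam, F13a1, Tmem119, Pde2a, Padi2, Matk, Hpse, Abca1 and B430306N03Rik, all negative, and Tln2, which was positive. Its adjusted p for Thbs1 was 0.034, with the same estimate of -2.98. B430306N03Rik lies outside the naming rule and is given because it completes the count.

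Day 21 offered a further look at the genotype order in mice outside the comparison. Of the 12 genes with a negative difference, the KO mean was below the WT mean in 11, but 0 of the 12 were separated lower (8.35% of all tested genes) and 1, Abca1, was separated higher (7.65%). Of the 12 with a positive difference, 6 had a KO mean above and 6 below, with 2 separated higher and 1, Mvd, separated lower. KO day 21 mice spread widely: Thbs1 had 1.79, 76.8 and 14.6 CPM, and Itgam 23.9, 133 and 41.0 CPM, where WT mice had 38.6 to 53.8 and 62.9 to 97.4. Interstitial genes had a KO mean below the WT mean in 14 of 15 members at day 14 and in 14 of 15 at day 21, with 12 and 3 separated (background 7.78% and 8.35%). At day 7 their KO mean was above the WT mean in 14 of 15, with 1 separated higher (background 3.93%).

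**Figure D4:**
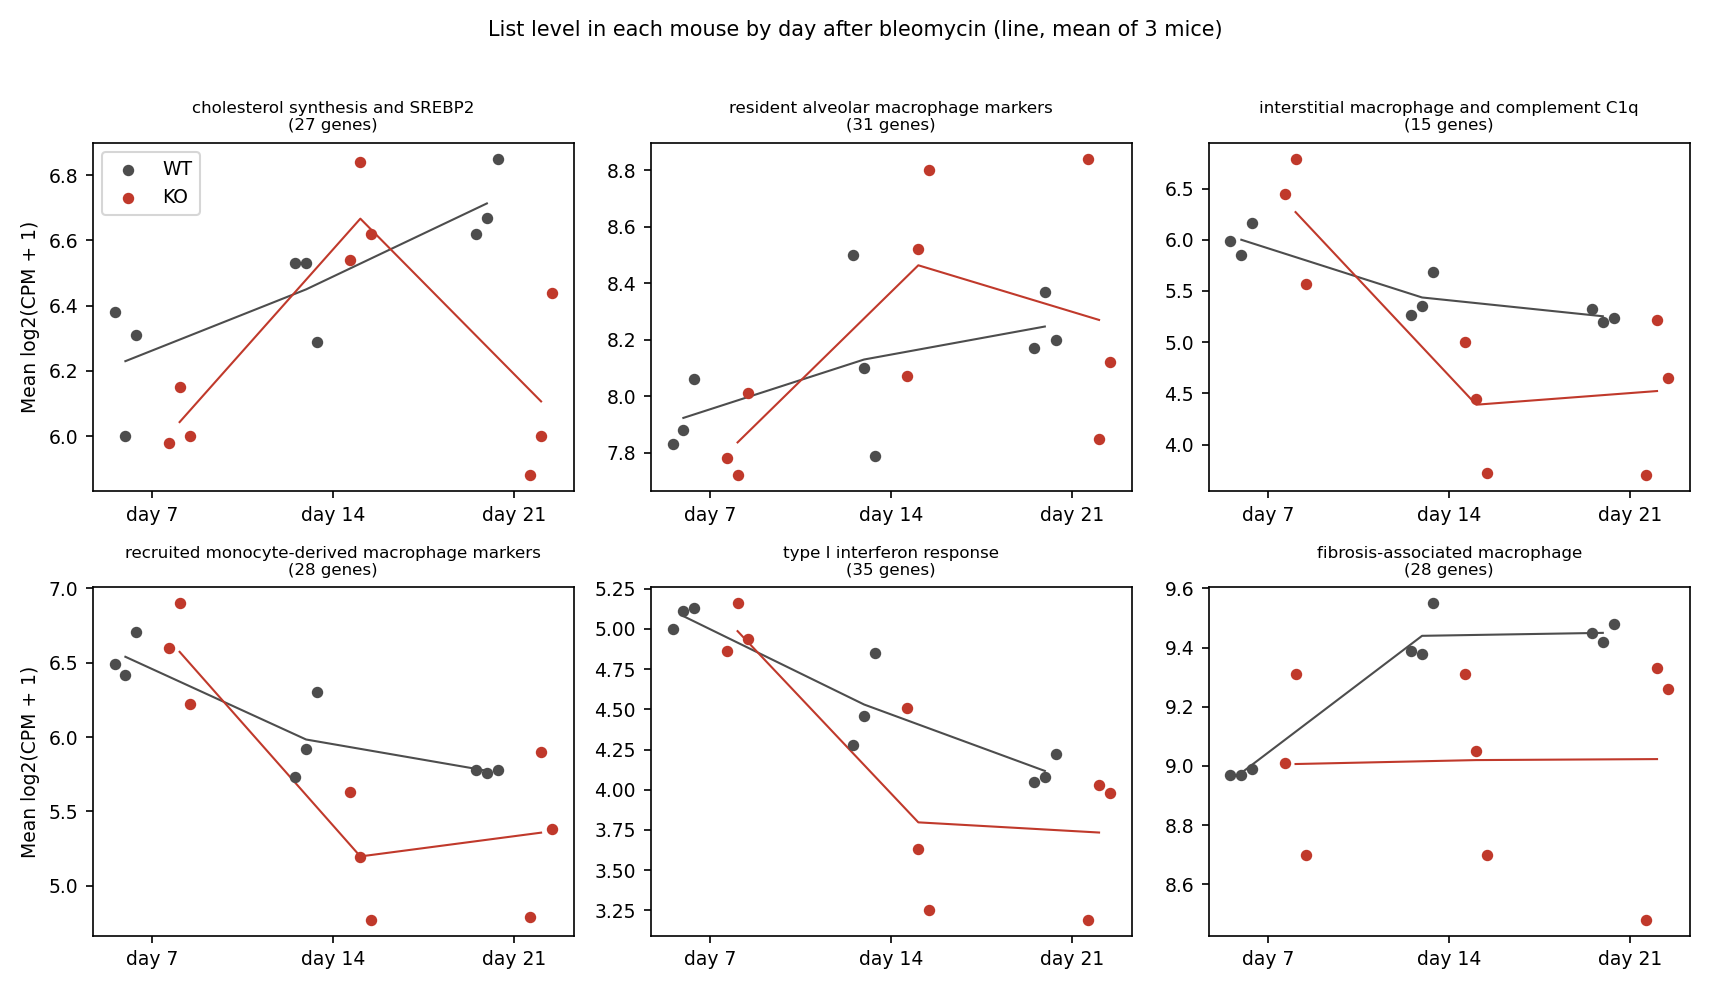
Mean log2(CPM + 1) of 6 gene lists (y axis) in each mouse at 7, 14 and 21 days (x axis), scaled over all 24 mice; points are mice, lines join group means, and Siglecf is left out of the resident list. In the cholesterol synthesis panel the KO mice lie at 6.54, 6.84 and 6.62 at day 14, and the WT mice at 6.53, 6.53 and 6.29. At day 21 the KO mice of that panel lie below the WT mice. In the interstitial panel the KO day 14 mice lie between 3.72 and 5.00, below the WT mice.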

How the data were processed

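RNA of lavage macrophages was sequenced as 150 bp paired ends from 200 ng of total RNA, per the labels' protocols. The authors deposited expected counts, estimated read counts per gene with fractions, with a single column for every mouse; the labels list 2 runs for each, and the sources do not say whether a column is their sum. The submitters' processing notes name mm10, bcl2fastq, DESeq2 1.42.0 and limma 3.58.1; the aligner, the counter and any use of strand are not stated there. Values of overlapping genes and close paralogs are therefore uncertain. A further 24 columns match no sample used here and were left out.

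Counts were rounded. The filterByExpr rule of edgeR 4.0.16 was applied to the 4 groups (minimum count 10, minimum total 15) in R 4.3.3, followed by TMM scaling and a fit of 1 mean per group (residual degrees of freedom 8, prior 4.79, biological coefficient of variation 0.21). The difference of changes and each genotype's change were tested with edgeR's quasi-likelihood F test. A gene was called at an adjusted p under 0.05 over all tested genes. SEs are the estimate divided by the root of F. Log2 values come from the model. List levels are averages of log2(CPM + 1) over members. Lists were described by counts and medians with no set test. Within groups, pairs of mice differed by more than counting error (chi-square of 36.7 to 226.5 for each degree of freedom). The labels do not say whether mice shared a litter or day.

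Named genes were the 12 of smallest p of each sign, 3 members of smallest p per described list, Siglecf and a panel. Comparison, lists and panel were chosen with earlier results of these data known. Alternatives were DESeq2, limma-voom with and without quality weights, RLE scaling, no and a stricter filter (1 CPM), a model of all 8 groups, thinning of counts to equal totals, the mouse number as a block, the Rn45s share as a covariate, and leaving out mice. The code was tested on simulated counts. Some genes that the naming rule covers are not reported here by name, but they remain in the counts and medians.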

Additional observations from a re-analysis of the deposited data

How the results depend on the processing

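The difference of changes called 0 genes with edgeR under the all-group model, RLE scaling, both filter changes, thinning, the Rn45s covariate and both limma-voom fits, and 11 with DESeq2. Leaving out single mice gave 0 to 13 calls, the 13 without KO day 14 mouse 1, and leaving out mouse 1 of both day 14 groups gave 86. WT calls were 1060 with DESeq2, 1295 with limma-voom and quality weights, 228 without mouse 1 of both day 14 groups, 255 without WT day 7 mouse 3 and KO day 14 mouse 1 (chosen after seeing the data), and 72 to 695 without single mice. KO calls were 2959 with quality weights and 712 to 2069 without single mice. Of 18 same-numbered pairs of mice, 5 correlated above 0.1, the highest at 0.38. Differently numbered pairs were not compared, so whether mouse numbers pair the mice was not tested. With the number as a replicate block 0, 443 and 1616 genes were called for the difference, WT and KO. The cause of these shifts was not tested. The named gene differences given in the report kept their sign under every alternative run. The list medians kept their sign for the cholesterol synthesis (0.38 to 0.59), interstitial (-2.30 to -1.31), recruited (-1.51 to -0.64), resident (0.27 to 0.79), interferon (-1.45 to -0.31) and fibrosis (-0.80 to -0.29) lists under 23 alternatives, which leave aside the one chosen after seeing the data. With 3 mice a group, the interval of a difference is wide: the median SE over genes was 0.25 on the log2 scale.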

Other observations

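Of 24 unfolded protein response genes, 19 had a positive difference of changes and 3 had an unadjusted edgeR p under 0.05, all positive. Xbp1, a transcription factor of that response, had 186, 191 and 248 CPM in KO mice at day 7 and 221, 384 and 402 at day 14, a 1.61-fold rise (adjusted p = 0.035), while WT mice overlapped between the days, at 212 to 272 and 218 to 265 CPM. KO day 14 mouse 1 was again close to the WT mice.

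Slc11a1, an iron and manganese transporter of the phagosome membrane, fell 3.30-fold in KO mice (edgeR adjusted p = 0.012), from 149.5, 131 and 44.3 CPM to 42.6, 32.4 and 23.6. WT mice had 69.4 to 137 CPM at day 7 and 84.4 to 118 at day 14, and the difference was -1.72 (SE 0.53). Il1b, an inflammatory cytokine, rose 3.60-fold in KO mice (adjusted p = 0.011), to 41.0, 90.4 and 139 CPM, and overlapped with the 34.2 to 76.6 CPM of WT mice at day 14. Of 21 tested cytokine and NF-kB genes, 14 had a positive difference and 1 an unadjusted p under 0.05. Among all tested genes, 52.8% had a positive difference and 6.29% an unadjusted p under 0.05.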
